A study of Mus musculus with 5 samples.

Results

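The genes described here are 9 components of interferon and cytokine signalling in cancer cells that grew in mouse lung: the receptor chains Ifngr1 and Ifngr2, the transcription factors Stat2, Stat3, Irf1, Irf7 and Irf9, and the feedback inhibitors Socs1 and Socs3. They were chosen by name, with earlier results of these data known, and looked up in the deposited gene table of cancer cells, which holds 23771 genes. The lists of other genes used below were chosen with the same knowledge. All 9 were found. All 9 had a UMI (a counted RNA molecule) in 10% or more of cancer cells in one library or the other, as did 10201 genes in all.

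Female BALB/c mice, 6 weeks old at the first injection, received tumor-secreted factors (TSF, medium in which pieces of 4T1 tumors had been kept) or control medium (CM, the same medium kept without tumor) intravenously 3 times per week for 3 weeks. All mice were then given 25000 CD90.1-expressing cells of 4T1, a mouse mammary carcinoma line, by vein. Lungs were taken at day 16, when the mice were 11 weeks old, and the dissociated cells of 3 mice were pooled into 1 single-cell library per group. The CM library held 29 cancer cells and the TSF library held 139. Only cells that the authors annotated as cancer cells enter the values below.

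Interferons signal through paired receptor chains on the cell surface. Interferon gamma binds IFNGR1, which pairs with IFNGR2, and the attached kinases JAK1 and JAK2 then pass the signal to a STAT dimer that binds DNA at gamma-activated sites (GAS) and raises transcription of Irf1 and other genes. Type I interferons bind IFNAR1 and IFNAR2, and the kinases JAK1 and TYK2 act on STAT factors. One of these, STAT2, joins IRF9 in the complex ISGF3, which binds interferon-stimulated response elements (ISRE). STAT3 is the main factor downstream of interleukin-6 and related cytokines that use the gp130 receptor, whose gene is Il6st. SOCS1 and SOCS3 are induced by these pathways and damp them, SOCS1 chiefly on interferon receptors and SOCS3 chiefly on gp130.

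Promoter sequence shows which of the 9 genes carry the letters of these elements close to their start. RefSeq promoter windows of GRCm38.p6, which span 250 bases before to 50 bases after a start, were found for all 9 genes, with 11 windows in all. The GAS letters TTCNNNGAA, the same on both strands, occurred in the windows of 2 genes, Irf1 and Socs3, and in 8.30% of all 32851 windows. The ISRE core letters GAAANNGAAA, searched on both strands, occurred in the windows of Socs1 and Stat2, and in 3.44% of all windows. Ifngr1, Ifngr2, Stat3, Irf7 and Irf9 had neither set of letters in these windows. A match is a description of letters and not a shown binding site. The stretches of these 4 genes are shown because they hold a match and are set beside the levels below. They run 5′ to 3′ on the strand of the gene, with the matched letters in capitals. The stretches are chr11:53769868-53769987 on the plus strand for Irf1, chr11:117969457-117969576 on the minus strand for Socs3, chr16:10785552-10785671 on the minus strand for Socs1 and chr10:128270248-128270367 on the plus strand for Stat2. In GENCODE M21 none of them overlaps an exon. The Socs3 stretch lies in an intron of a longer Socs3 transcript, and the other stretches lie outside annotated genes.
Irf1: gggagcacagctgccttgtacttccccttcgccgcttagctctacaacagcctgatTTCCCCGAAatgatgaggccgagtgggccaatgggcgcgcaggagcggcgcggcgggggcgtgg
Socs3: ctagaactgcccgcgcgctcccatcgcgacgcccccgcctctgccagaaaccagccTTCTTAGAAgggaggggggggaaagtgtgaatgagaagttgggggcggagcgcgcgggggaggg
Socs1: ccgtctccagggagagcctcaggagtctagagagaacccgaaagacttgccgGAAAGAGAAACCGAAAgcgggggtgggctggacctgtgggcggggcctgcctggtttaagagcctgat
Stat2: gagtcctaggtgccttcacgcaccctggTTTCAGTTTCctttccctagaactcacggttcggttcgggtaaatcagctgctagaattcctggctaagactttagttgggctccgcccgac
The Irf1 match begins 90 bases before the RefSeq start and the Socs3 match begins 154 bases before it. Socs1 has 2 ISRE core matches that share bases and begin 83 and 77 bases before the start, so its capitals form 1 run. The Stat2 match begins 222 bases before the start and is written on the opposite strand, as TTTCAGTTTC.

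Levels are mean CP10k, the UMIs per 10000 UMIs of a cell averaged over all cancer cells of a library, as the authors deposited them. Differences are log2((TSF + 1)/(CM + 1)) of those means, called the log2 difference below, and a negative value means lower in TSF. With 1 library per group no test was made, and no difference has a replicate check. Mean CP10k carries no interval here. Shares of cells with a UMI carry exact Clopper-Pearson intervals at 95%, and differences of shares carry Newcombe intervals. These intervals measure counting error, and the spread between mice is not in them. The median cancer cell had 27679 UMIs in the CM library and 26615 in the TSF library, and 27.6% of the CM cells (8 of 29, interval 12.7 to 47.2%) and 10.1% of the TSF cells (14 of 139, interval 5.62 to 16.3%) had under 10000 UMIs. The 2 libraries shared 31 cell barcodes over all cells and 0 among cancer cells. Neither shares nor levels among cells with a UMI were thinned to equal depth, and a single UMI gives a higher CP10k in a shallow cell. Shares in cell types that lack these genes, which would measure free RNA, were not analysed here.

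The label of cancer cells was checked against markers. Krt8, an epithelial keratin, was seen in 29 of 29 CM cells and 137 of 139 TSF cells. None of 16 leukocyte genes and none of 7 lung epithelial genes reached 10% of cells in either library. The summed level of the leukocyte genes was 0.0479 CP10k in CM and 1.07 in TSF, with 12 and 7 of the 16 genes at 0. Of 5 endothelial and 6 fibroblast or pericyte genes, 2 of each list reached 10% of cells in a library, with summed levels of 0.0588 and 0.498 CP10k in CM and 0.287 and 1.07 in TSF. The endothelial genes were Tie1, in 0% of CM cells and 17.3% of TSF cells, and Cdh5, in 10.3% and 4.32%. The fibroblast or pericyte genes were Pdgfra, in 44.8% and 45.3%, and Dcn, in 6.90% and 11.5%. Of 8 carcinoma markers 1 passed 1.5-fold by the log2 difference, Epcam, which was higher in TSF, beside 0.755% of all genes. By plain ratio the TSF means of Cldn4, CD90.1, Epcam and Cdh1 were 9.62-, 6.86-, 6.56- and 2.60-fold the CM means, and the keratins lay within 1.5-fold. By plain ratio 16.0% of all genes were higher past 1.5-fold. Cldn4 was seen in 10.3% of CM cells and 18.0% of TSF cells. Krt18 was seen in 96.6% of CM cells and 99.3% of TSF cells, Krt7 in 62.1% and 61.2%, and Krt19 in 31.0% and 38.1%. Epcam was seen in 27.6% of CM cells (8 of 29) and 68.3% of TSF cells (95 of 139), Cdh1 in 6.90% and 25.2%, and the CD90.1 reporter in 6.90% and 34.5%. The part of these marker differences in the results below was not tested. The paper identified its cancer cells by CD90.1 expression after a first clustering. With CD90.1 seen in 2 of 29 CM cells, the label of the CM cells rests on the authors' annotation.

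Across the 9 genes, transcripts of Irf1 and Socs1 were lower in TSF than in CM by more than 1.5-fold with the pseudocount, Stat2, Irf7 and Irf9 were lower by slightly less than that, and Stat3, Socs3 and both receptor chains lay closer to 0. Of the 9 genes, 7 had a log2 difference below 0, beside 59.7% of all genes in at least 10% of cells. Past 1.5-fold, 2 of the 9 were lower, beside 1.95% of those genes, and 0 of the 9 were higher, beside 0.755%. The same 2 genes, Irf1 and Socs1, were lower past 2-fold, beside 0.529%. The median log2 difference was -0.55 over the 9 genes and -0.03 over all 10201 genes. Of the 2 genes past the 1.5-fold limit the nearer to it was Socs1 at -1.40, and nearest short of it were Irf9 at -0.58, Stat2 at -0.57 and Irf7 at -0.55. The count of 2 therefore rests on a limit that 3 genes nearly reach, and it was 5 with a pseudocount of 0.1, where 17.3% of all genes were lower by that fold. It was also 5 with Rpl and Rps genes, which encode ribosomal proteins, left out of the total, where 2.19% of all genes were lower by that fold. These genes held 1859 CP10k in CM and 2390 in TSF, so leaving them out raised TSF values by a larger factor than CM values. The count rose because the pseudocount weighs less on the larger CP10k values, and plain ratios moved toward TSF.

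**Figure D1:**
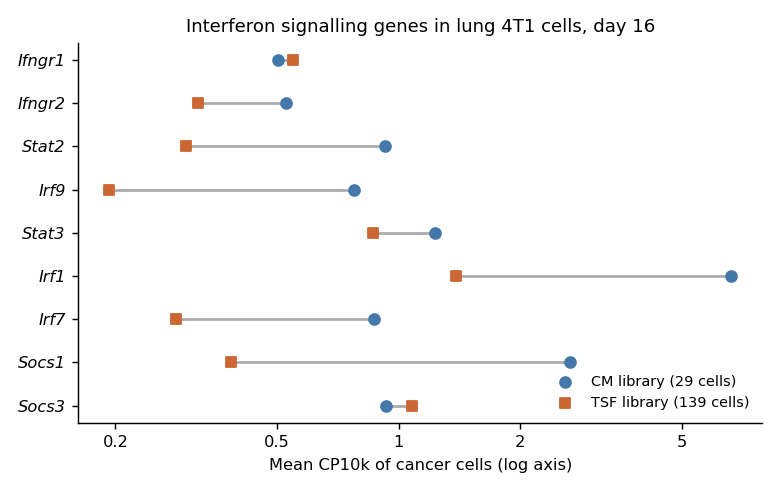
Mean CP10k of the 9 genes in the cancer cells of the CM library (circles, 29 cells) and the TSF library (squares, 139 cells) at day 16, on a log axis; each gray line joins the 2 values of a gene. Irf1 goes from 6.64 in CM to 1.39 in TSF and Socs1 from 2.65 to 0.385, while the points of Ifngr1 and of Socs3 lie close together.

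The receptor chains of interferon gamma were seen in most cells of both libraries. Ifngr1, the chain that binds the cytokine (ENSMUSG00000020009, GRCm38 chromosome 10, 19591949 to 19610229, plus strand), had 0.504 CP10k in CM and 0.548 in TSF, a log2 difference of 0.04. It was seen in 21 of 29 CM cells (72.4%, interval 52.8 to 87.3%) and 85 of 139 TSF cells (61.2%, interval 52.5 to 69.3%), a difference of -11.3 percentage points with an interval from -26.6 to 8.44. The mean level and the share of cells thus pointed in opposite directions, and the share did not differ beyond counting error.

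Ifngr2, the signalling partner chain (ENSMUSG00000022965, chromosome 16, 91547072 to 91565623, plus strand), had 0.526 CP10k in CM and 0.319 in TSF, a log2 difference of -0.21. It was seen in 17 of 29 CM cells (58.6%) and 73 of 139 TSF cells (52.5%), and the interval of the difference ran from -24.0 to 13.5 points. No difference in the share of cells with either chain was detectable with 29 CM cells.

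The type I receptor chains and the kinases that join them to the STAT factors were read from lists of pathway genes. Ifnar1 had 0.157 CP10k in CM and 0.277 in TSF, and Ifnar2 had 0.760 and 0.844. Of 5 interferon and partner receptors in at least 10% of cells, 0 passed 1.5-fold in either direction, and the median log2 difference was 0.07. Jak1 had 0.854 CP10k in CM and 0.721 in TSF, Jak2 had 0.775 and 0.722, and Tyk2, seen in 6.90% and 10.1% of cells, had 0.0213 and 0.0617. Of 4 Janus kinases, 0 passed 1.5-fold, with a median log2 difference of 0.0017. No receptor or kinase transcript passed the limit, beside 1.95% of all genes lower and 0.755% higher. For Ifnar1, Il10rb, Jak3 and Tyk2 the pseudocount put the lower limit out of reach at their CM levels. At the CM means of Ifngr1 and Ifngr2, 0.504 and 0.526 CP10k, only a TSF mean near 0 could have passed it. By plain ratio the TSF means of Ifnar1, Il10rb and Tyk2 were 1.76-, 1.88- and 2.90-fold the CM means. The plain CM mean of Ifngr2 was 1.65-fold its TSF mean, and the remaining receptors and kinases in at least 10% of cells lay within 1.5-fold.

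Each transcription factor among the 9 genes had a lower mean in TSF than in CM. Irf1, a transcription factor induced by interferon gamma (ENSMUSG00000018899, chromosome 11, 53770014 to 53778374, plus strand), had 6.64 CP10k in CM and 1.39 in TSF, so the CM mean was 4.78-fold the TSF mean. Its log2 difference of -1.68 was 12th from the lowest among the 10201 genes. Irf1 was seen in 27 of 29 CM cells (93.1%, interval 77.2 to 99.2%) and 97 of 139 TSF cells (69.8%, interval 61.4 to 77.3%), a difference of -23.3 points with an interval from -32.8 to -6.70. Most of the difference in its mean lay in the level of the cells that had it: among cells with a UMI the mean was 7.13 CP10k in CM and 1.99 in TSF, or 3.59-fold, beside a share that was 1.33-fold.

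Stat2, the type I interferon factor that joins IRF9 in ISGF3 (ENSMUSG00000040033, chromosome 10, 128270559 to 128292849, plus strand), had 0.928 CP10k in CM and 0.299 in TSF, a log2 difference of -0.57. It was seen in 17 of 29 CM cells (58.6%) and 57 of 139 TSF cells (41.0%), a difference of -17.6 points whose interval, -35.3 to 2.11, included 0. Cells with a UMI averaged 1.58 CP10k in CM and 0.730 in TSF.

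Irf9, the DNA-binding part of ISGF3 (ENSMUSG00000002325, chromosome 14, 55603571 to 55610030, plus strand), had 0.778 CP10k in CM and 0.193 in TSF, so the CM mean was 4.03-fold the TSF mean, and the log2 difference was -0.58. It was seen in 18 of 29 CM cells (62.1%, interval 42.3 to 79.3%) and 52 of 139 TSF cells (37.4%, interval 29.4 to 46.0%), a difference of -24.7 points with an interval from -41.7 to -4.78. In TSF the cells with a UMI averaged 0.516 CP10k, equal to 1.37 UMIs in a cell of median depth and close to the single UMI that is the least a cell can show. In CM the same quantity was 1.25 CP10k, equal to 3.47 UMIs.

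Irf7, a factor that interferon induces and that amplifies type I interferon transcription (ENSMUSG00000025498, chromosome 7, 141262706 to 141266481, minus strand), had 0.871 CP10k in CM and 0.282 in TSF, a log2 difference of -0.55. It was the gene of the 9 seen in the smallest share of cells in both libraries, 13 of 29 in CM (44.8%, interval 26.4 to 64.3%) and 38 of 139 in TSF (27.3%, interval 20.1 to 35.5%). The interval of the difference of -17.5 points, from -36.4 to 0.746, included 0. For Stat2, Irf7 and Irf9 the pseudocount compresses the difference, since the plain CM means were 3.10-, 3.09- and 4.03-fold the TSF means.

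**Figure D2:**
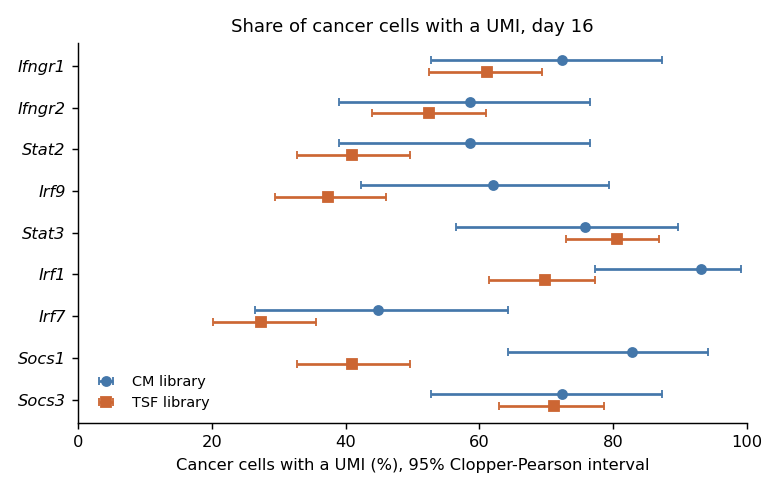
Percent of cancer cells with a UMI of each of the 9 genes in the CM library (circles) and the TSF library (squares), with exact 95% Clopper-Pearson intervals that cover counting error only. The intervals of Socs1 do not overlap, those of Irf1 meet only at their ends near 77%, and those of the receptor chains, Stat3 and Socs3 overlap widely.

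Stat3, the factor of the gp130 cytokines (ENSMUSG00000004040, chromosome 11, 100885098 to 100939540, minus strand), had 1.23 CP10k in CM and 0.865 in TSF, a log2 difference of -0.26. It was nevertheless seen in a larger share of TSF cells, 112 of 139 (80.6%, interval 73.0 to 86.8%), than of CM cells, 22 of 29 (75.9%, interval 56.5 to 89.7%). Among cells with a UMI the level was 1.62 CP10k in CM and 1.07 in TSF. The share and the mean pointed in opposite directions, and the interval of the share difference, -9.30 to 23.6 points, included 0.

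The 2 feedback inhibitors differed from each other. Socs1 (ENSMUSG00000038037, chromosome 16, 10782240 to 10785536, minus strand) had 2.65 CP10k in CM and 0.385 in TSF, the largest plain ratio of the 9 genes, with a CM mean 6.89-fold the TSF mean and a log2 difference of -1.40. It was seen in 24 of 29 CM cells (82.8%, interval 64.2 to 94.2%) and 57 of 139 TSF cells (41.0%, interval 32.7 to 49.7%). The difference of -41.8 points had an interval from -54.2 to -22.6, and these were the only intervals of a share among the 9 genes that lay wholly apart. Cells with a UMI averaged 3.21 CP10k in CM and 0.939 in TSF.

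Socs3 (ENSMUSG00000053113, chromosome 11, 117966079 to 117970047, minus strand) had 0.932 CP10k in CM and 1.08 in TSF, a log2 difference of 0.11. It was seen in 21 of 29 CM cells (72.4%, interval 52.8 to 87.3%) and 99 of 139 TSF cells (71.2%, interval 62.9 to 78.6%), and the interval of the difference ran from -16.4 to 18.2 points. Its cells with a UMI averaged 1.29 CP10k in CM and 1.52 in TSF. Irf1 and Socs3 both hold the GAS letters shown above, and only Irf1 was past 1.5-fold. Socs1 and Stat2 both hold the ISRE core letters, with log2 differences of -1.40 and -0.57.

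**Figure D3:**
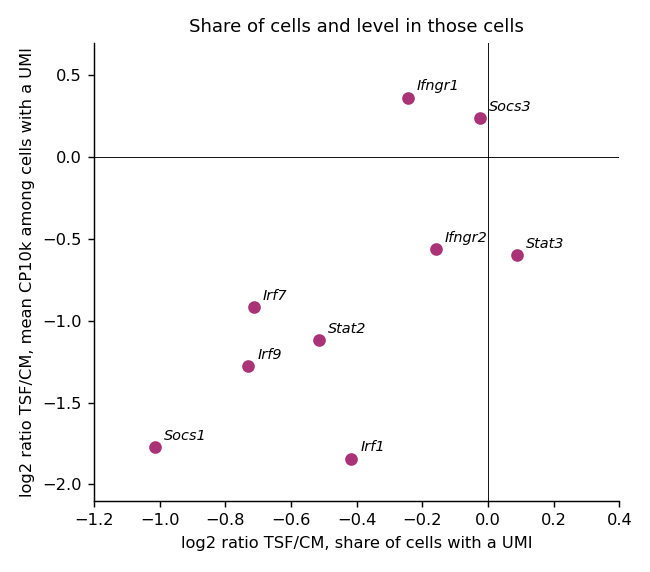
For each of the 9 genes, the log2 ratio of TSF over CM in the share of cells with a UMI (x axis) and in the mean CP10k among those cells (y axis), with no pseudocount. Irf1 lies low at -0.42 on x and -1.84 on y, Socs1 at -1.01 and -1.77, and Socs3 and Ifngr1 are the 2 genes above 0 on y.

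Split into these 2 quantities, 8 of the 9 genes were seen in a smaller share of TSF cells, beside 50.8% of all genes, and 7 of 9 had a lower level among the cells with a UMI, beside 63.1% of all genes with a UMI in both libraries. By the plain ratio of means, 6 of the 9 genes were lower past 1.5-fold (Stat2, Irf1, Irf7, Irf9, Socs1 and Ifngr2), beside 29.8% of all genes. In each of these 6 the level among cells with a UMI differed more than the share. By the share alone, 3 of the 9 genes were lower past 1.5-fold (Irf7, Irf9 and Socs1), beside 12.7% of all genes. The number of CM cells limits these levels, since each of the 29 cells makes up a larger part of the mean than each of the 139 TSF cells.

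**Figure D4:**
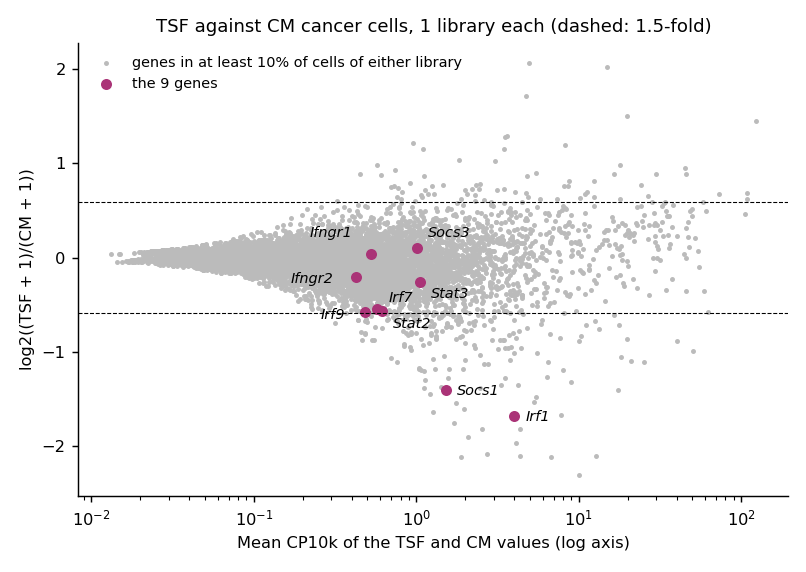
The log2 difference of TSF against CM for the 10201 genes in at least 10% of cells of either library (gray) against the mean of both CP10k values on a log axis, with the 9 genes marked and dashed lines at 1.5-fold. Irf1 and Socs1 lie at the lower edge, Stat2, Irf7 and Irf9 just above the lower line, and the other 4 within the bulk of genes.

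The same comparison was made for the other genes of the pathway. Outside the 9 genes, 33 receptors, kinases, STAT and IRF factors and feedback inhibitors were counted, of which 29 were in at least 10% of cells. Of these, 1 was lower past 1.5-fold, Irf8, 0 were higher, and the median log2 difference was -0.10. Irf8, a factor best known from myeloid and B cells and also induced by interferon gamma, had 0.820 CP10k in CM and 0.163 in TSF and was seen in 62.1% and 28.1% of cells. Of 7 IRF factors in at least 10% of cells, 2 were lower past the limit, Irf1 and Irf8, all 7 had a log2 difference below 0, and the median was -0.55. Of 5 STAT factors counted 0 passed the limit, and of 17 feedback inhibitors 1 was lower, Socs1, with medians of -0.26 and -0.11. Beside these counts 1.95% of all genes were lower and 0.755% higher. The pseudocount compresses low values here too. By plain ratio the CM means of Usp18, Cish and Stat6 were 4.64-, 2.71- and 2.48-fold the TSF means. The TSF means of Stat5a and Ptpn6 were 2.47- and 1.73-fold the CM means. The share of cells with Cish differed by -23.1 points, with an interval from -41.6 to -4.49.

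Genes that respond to these factors were counted in lists by the signal or factor they are best known for. Of 20 interferon gamma response genes, 16 were lower past 1.5-fold and 0 higher, all 20 had a log2 difference below 0, and the median was -1.16. Those furthest down were Gbp2, Gbp4 and Gbp6 of the guanylate-binding proteins and Igtp and Iigp1 of the immunity-related GTPases, with log2 differences of -2.11, -2.11, -1.63, -1.90 and -1.75. Gbp genes are close paralogs, and how reads were split among them is uncertain. Of 16 ISGF3 response genes in at least 10% of cells, 4 were lower and 0 higher, all 16 were below 0, and the median was -0.35. These 4 were Bst2, which tethers budding virus, at -1.67, Isg15, a ubiquitin-like protein, at -1.35, Xaf1 at -1.07 and Rtp4 at -0.91. The background is 1.95% of genes lower past the limit. The pseudocount compresses low values, so the counts of these lists cannot be compared by size alone. Plain ratios of CM over TSF ran from 1.69 (Gbp5) to 44.0 (Gbp4) in the interferon gamma list. They ran from 1.41 (Dhx58) to 8.81 (Cmpk2) in the 16 ISGF3 genes. By plain ratio 29.8% of all genes were lower past 1.5-fold.

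The STAT3 list differed in its counts. Of 15 STAT3 response genes in at least 10% of cells, 1 was lower, 2 were higher and 12 were above 0, with a median log2 difference of 0.04. Of all genes 1.95% were lower and 0.755% higher, and 59.7% were below 0. Ccnd1, cyclin D1, was lower, from 17.1 CP10k in CM to 9.71 in TSF. Cebpd, an acute-phase transcription factor, was higher, from 0.0584 to 1.08 CP10k, and so was Lcn2, a secreted iron-siderophore carrier, from 5.75 to 10.4. By plain ratio the TSF means of Icam1, Il4ra and Timp1 were also past 1.5-fold, at 2.83-, 2.60- and 1.54-fold the CM means. The CM mean of Pim1 was 1.83-fold its TSF mean. By plain ratio 29.8% of all genes were lower past 1.5-fold and 16.0% higher. The gp130 receptor gene Il6st had 0.269 CP10k in CM and 0.589 in TSF, a log2 difference of 0.33. It was seen in 44.8% and 69.1% of cells, a difference of 24.2 points with an interval from 4.84 to 42.1. With the pseudocount none of 4 gp130 cytokine receptors passed 1.5-fold, though the plain TSF mean of Il6st was 2.19-fold its CM mean. Of 4 gp130 cytokines Il11 was lower, from 1.45 to 0.400 CP10k.

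Transcripts of interferons themselves were seen in at most 1 cancer cell of a library. Of 10 interferon genes listed, 5 were in the table. Ifng, Ifnb1 and Ifnl2 had a UMI in 0 cells of either library, which by a limit of 3 counts of the total allows up to 10.3% of CM cells and 2.16% of TSF cells to have had one. The exact upper bounds of the Clopper-Pearson interval were 11.9% and 2.62%. Ifnk was seen in 1 CM cell and Ifne in 1 TSF cell.

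Immediate-early genes, which respond within minutes to many stimuli and to cell dissociation, also differed between the libraries. Of 16 such genes, 9 were lower past 1.5-fold and 0 higher, beside 1.95% of all genes lower and 0.755% higher, with a median log2 difference of -0.84 and a summed level of 146.8 CP10k in CM and 66.0 in TSF. The 5 furthest down were Atf3 at -2.31, Egr1 at -2.11, Jun at -1.41, Ier2 at -1.32 and Nr4a1 at -1.18. Their part in the differences of Irf1 and Socs1 was not tested.

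**Figure D5:**
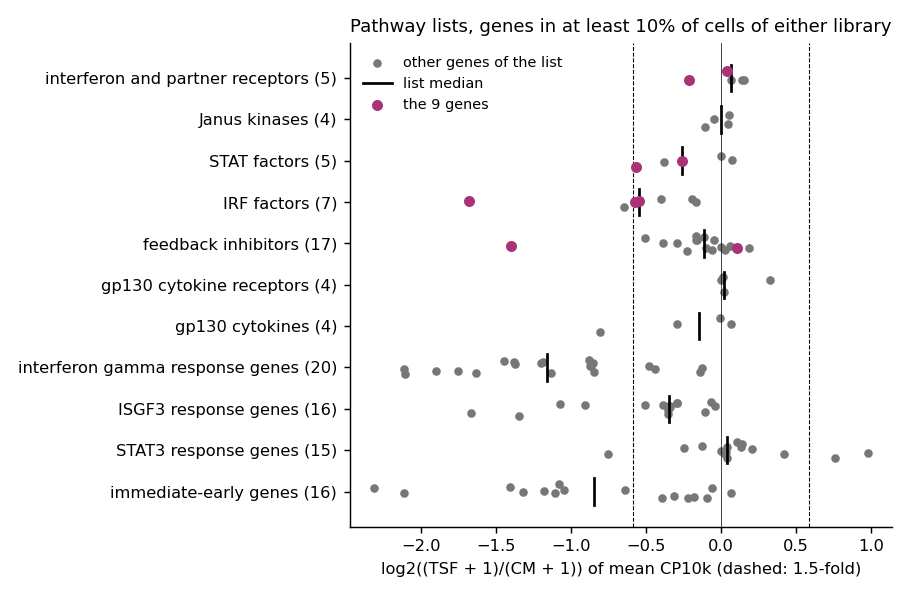
Log2 differences of TSF against CM for genes of 11 pathway lists in at least 10% of cells of either library, with the number of genes in parentheses, 1 point per gene, the 9 genes marked, vertical bars at list medians and dashed lines at 1.5-fold. The interferon gamma response genes (median -1.16) and the immediate-early genes (median -0.84) lie furthest left, while receptors, kinases and STAT3 response genes center near 0.

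Among the gene sets the authors deposited, 17 sets of at most 300 genes held at least 4 of the 9 genes. With the 9 genes left out, 16 of the 17 sets had a larger percent of genes lower past 1.5-fold than the background of 1.95%, and 15 had a median log2 difference below that of all genes. The highest percent was 40.7%, in the WikiPathways set of type II interferon signalling (11 of 27 genes, median -0.34). The Hallmark interferon gamma response set had 32 of 157 genes lower and 0 higher, with a median of -0.23. In the Hallmark interleukin-6, JAK and STAT3 set, 4 of 47 genes were lower and 1 higher, with a median of -0.09. The one set with no gene past the limit was the WikiPathways set of STAT3 regulatory circuits, with 0 of 42 genes. These sets share many genes, so they are not separate observations.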

How the data were processed

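Lung cells of mice given TSF or CM were profiled with 5′ single-cell libraries of 10x Genomics. The authors mapped reads with Cell Ranger to mm10 (GRCm38.p6) with a CD90.1 sequence added, imported counts with Seurat 4.1.0, corrected them for ambient RNA with a customised SoupX and annotated the cell types by hand. They identified cancer cells by CD90.1 expression. They compared the clusters they called multiplets with scDblFinder scores, and took no doublets out of the cancer cells after sub-clustering. No doublet caller was run here. The deposited table of cancer cells gives mean CP10k, the number of cells with a UMI and the percent of cells with a UMI in each library. The deposited cell table gives UMI counts and percent mitochondrial UMIs per cell. It also holds 2 libraries with no sample described, which were not used. Columns of the authors' own comparison (fold changes, p-values, ranking and enrichment scores) were not used.

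From these values, log2((TSF + 1)/(CM + 1)), shares with their intervals and the level among cells with a UMI were computed in Python 3.11.15 with numpy 2.4.6, pandas 2.3.3 and scipy 1.17.1, and drawn with matplotlib 3.10.9. The calculation was checked on simulated data. Called means past 1.5-fold, among genes in at least 10% of cells of either library. The alternatives were other pseudocounts, folds, filters, centring and totals without Rpl and Rps genes. Gene coordinates came from GENCODE M21 by identifier and promoters from RefSeq by symbol. The 9 genes and all lists were chosen with earlier results of these data known. From the lists, genes past 1.5-fold were named, at most 5 per list, with Ifnar1, Ifnar2, Jak1, Jak2, Tyk2 and Il6st. Marker genes and some further genes were named for their shares of cells or plain ratios. A gene of the pathway lists is not reported here.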

Additional observations from a re-analysis of the deposited data

How the results depend on the processing

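The counts of the 9 genes past 1.5-fold depended on the pseudocount. The count lower in TSF was 2 as reported, 5 with a pseudocount of 0.1, 6 with none and 5 with Rpl and Rps genes left out of the total, where 2.19% of all genes were lower by 1.5-fold. It was 3 by the share of cells (Irf7, Irf9 and Socs1, beside 12.7% of all genes) and 2 with centring or a 2-fold limit. With no pseudocount 29.8% of all genes were lower by 1.5-fold. The count higher was 0 in every setting tried. The median log2 difference of the 9 genes was -0.55 as reported, -1.35 with a pseudocount of 0.1 (all genes -0.13) and -1.63 with none (all genes -0.19). A smaller pseudocount enlarges differences of low values by construction. Leaving out Rpl and Rps genes acts in the same way, because it raises the CP10k values. Of 54 values of single genes under these alternatives, 37 moved by less than the counting error of the log2 ratio of shares and 17 moved by more. The sign changed in 3 of them, all by the share of cells (Ifngr1, Stat3 and Socs3), and in none of the genes past the limit. The percent of all genes past 1.5-fold stayed within 1.5 times its value under the other filters. No paired analysis was possible because each group had 1 library. Leaving out a library was not possible for the same reason. The 29 CM cells set the precision of every comparison.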
